A study of Homo sapiens with 2 samples.

Results

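The SLC25 genes encode the mitochondrial carriers, which move nucleotides, amino acids, organic acids and ions across the inner mitochondrial membrane. The carriers of HEK293 cells were taken as every gene row whose symbol starts with SLC25A in the tables of both samples, and they were grouped by the substrate that each carrier is known to move. Of the 52 such rows, 1 was a second copy of SLC25A6 on chromosome Y with the same values as the copy on X, 1 was an antisense RNA, 1 was a pseudogene and 4 were listed at 0 in both samples. This left 45 carrier genes among 23958 gene rows. Fold changes were counted for genes that reached an FPKM of 1 in WT or PERK-KO cells, which held for 42 of the 45 carriers and 14587 of all genes. FPKM is the number of sequenced fragments scaled by transcript length and sequencing depth, so that levels of different genes can be set side by side.

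Carriers of this family share a fold made of repeats and are built in the cytosol, from where the TIM22 pathway inserts them into the inner membrane. The ADP/ATP carriers export the ATP that oxidative phosphorylation makes, the phosphate carrier brings in the phosphate for it, and the aspartate/glutamate and 2-oxoglutarate/malate carriers together form the malate-aspartate shuttle, which passes reducing equivalents from the cytosol to the respiratory chain. HEK293 is a line derived from human embryonic kidney.

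Poly(A) RNA was sequenced from wild-type (WT) HEK293 cells and from PERK-KO HEK293 cells, in which the gene of the endoplasmic reticulum stress kinase PERK had been targeted by CRISPR/Cas9. Cells of both genotypes had been kept for 12 h in glucose-free OXPHOS medium with 10 mM galactose, 1 mM pyruvate and 10% serum, in which cells depend on mitochondrial respiration for their ATP. The PERK-KO cells were grown from single cells and are therefore a clone, so that differences between clones and the loss of PERK cannot be told apart. With 1 sample per genotype there is no replicate and no test, and the confidence limits in the files, which lie 2 SD from each value, cover the counting and read-assignment error within 1 library.

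EIF2AK3, which encodes PERK, was at 5.61 FPKM (5.11 to 6.12) in WT and 3.89 (3.44 to 4.34) in PERK-KO cells, and gene-level FPKM does not show whether the remaining mRNA carries an edit. FPKM was at least 1 for 14145 genes in WT cells and for 14228 in PERK-KO cells. Of 6 markers of HEK293 cells, 5 reached 1 FPKM in WT or PERK-KO cells, and PAX2 was below it with 0.981 in WT and 0.748 in PERK-KO cells. The neurofilament gene NEFM differed the most among these markers, with 0.662 in WT and 5.21 in PERK-KO cells, and LHX1 was at 4.65 and 2.88. Of 6 markers of other cell types, ALB, HBB and CDH5 were listed at 0 in both samples, PTPRC and MYH7 were below 1, and COL1A1 was at 4.97 and 4.62. The part of these marker differences in the carrier results was not tested.

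The mRNAs of the carriers were close to the WT level in PERK-KO cells. A difference of less than 1.2-fold was seen for 29 of the 42 carriers (69.0%), compared with 48.8% of all genes tested. Only SLC25A48 differed by more than 1.5-fold in the lower direction, which is 2.38% of the carriers against 7.54% of all genes. No carrier was more than 1.5-fold higher, whereas 10.1% of all genes were. The median log2 fold change of the carriers was 0.04, with 19 lower and 23 higher, and that of all genes tested was also 0.04. The carriers ranged from -0.66 to 0.51.

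**Figure D1:**
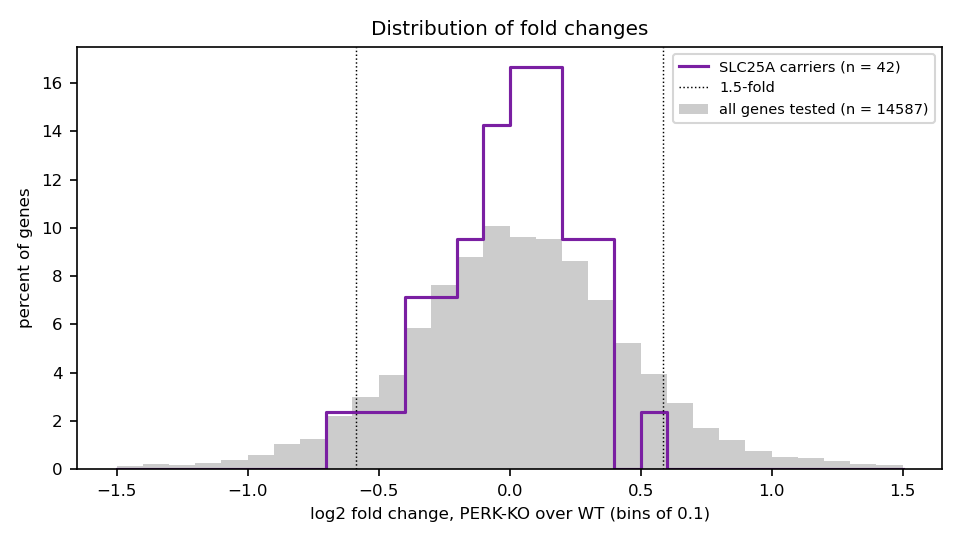
The percent of genes in each bin of log2 fold change (PERK-KO over WT, bins of 0.1) is plotted for all 14587 genes tested as grey bars and for the 42 carriers as a line, with dotted lines at 1.5-fold. The carriers lie between -0.66 and 0.51, and 1 of them lies beyond a dotted line.

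The confidence limits of WT and PERK-KO cells did not overlap for 15 carriers. These were lower in PERK-KO cells for 8 of the 42 carriers tested, beside 18.7% of all genes, and higher for 7 of 42 (16.7%), beside 26.1% of all genes. After rescaling to a median fold change of 0 over all genes, the same 8 carriers were lower and 4 of the 7 were higher, with SLC25A6, SLC25A12 and SLC25A13 now overlapping. The limits depend on level, and over the 42 carriers their median distance from the value was 8.97% of it in WT and 9.15% in PERK-KO cells, with a range of 2.85% to 44.7%.

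Expression was concentrated in a few carriers. The FPKM of the 45 carriers summed to 2001 in WT and 1880 in PERK-KO cells. The ratio of this carrier sum was 0.939, beside 0.869 for the sum over all genes tested. The 3 carriers of the highest mean level, SLC25A5, SLC25A3 and SLC25A6, held 53.3% of this sum in WT and 54.7% in PERK-KO cells, and the 10 highest held 83.1% and 81.6%. The RNA was from whole cultures, so that fewer cells that express a gene and less of its RNA per cell cannot be told apart. FPKM is a relative measure, so that each sum also depends on the other RNAs of its library.

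**Figure D2:**
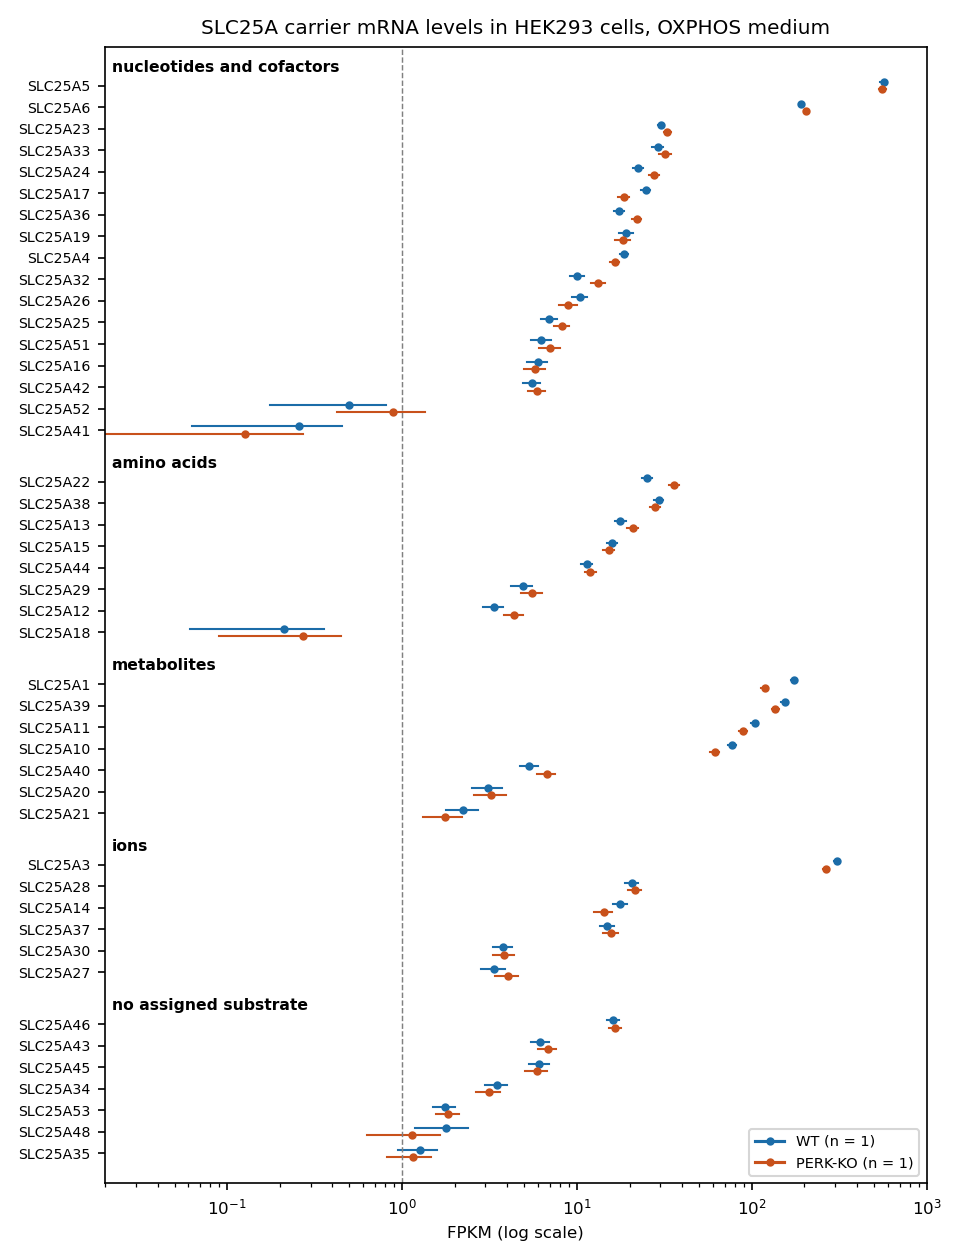
FPKM on a log scale is plotted for each of the 45 carriers in WT (blue) and PERK-KO cells (orange), 1 sample each, sorted by substrate and level, with the deposited confidence limits as bars and a dashed line at 1 FPKM. The lower limit of SLC25A41 in PERK-KO cells is 0 and is drawn to the edge. SLC25A5 and SLC25A3 are at the right in both genotypes, and SLC25A52, SLC25A41 and SLC25A18 lie left of the dashed line in both.

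The 3 detected ADP/ATP carriers had the same summed level, at 778 FPKM (limits 752 to 804) in WT and 778 (752 to 804) in PERK-KO cells, with a log2 fold change of 0.00 ± 0.07, where ± is 2 SD here and in what follows. SLC25A5 (ANT2), the form that dividing cells use most, was the highest of all carriers at 568 (543 to 594) in WT and 557 (532 to 583) in PERK-KO cells, and these ranges overlapped. SLC25A6 (ANT3) was at 191 (185 to 196) and 204 (198 to 211), with a log2 fold change of 0.10 ± 0.06. SLC25A4 (ANT1), the form of heart and skeletal muscle, was at 18.6 (17.7 to 19.5) and 16.4 (15.5 to 17.4), with a log2 fold change of -0.18 ± 0.11. The order of the 3 forms did not differ between the genotypes. SLC25A5 made up 73.1% of the sum in WT and 71.6% in PERK-KO cells, SLC25A6 24.5% and 26.3%, and SLC25A4 2.39% and 2.11%. SLC25A31 (ANT4), known from the testis, was listed at 0 in both. These genes resemble each other in sequence and have processed copies in the genome, and how reads shared between such copies were assigned was not given in the sources used here. The split between the forms is uncertain for that reason.

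Among the other nucleotide carriers, those for ATP-Mg and for pyrimidine nucleotides were higher in PERK-KO cells by summed FPKM, before transcript length was considered. The ATP-Mg/phosphate carriers, which adjust the adenine nucleotide content of the matrix, summed to 59.9 FPKM (57.8 to 62.1) in WT and 68.7 (66.2 to 71.1) in PERK-KO cells. SLC25A24 carried most of this difference, with 22.4 (21.0 to 23.9) in WT and 27.5 (25.8 to 29.3) in PERK-KO cells, with a log2 fold change of 0.30 ± 0.13. SLC25A23 was at 30.3 (28.9 to 31.6) and 32.8 (31.3 to 34.3), with overlapping limits. SLC25A41 was near the lower end of what the libraries can show, at 0.257 and 0.126. The widths of its limits correspond to about 7 and 3 fragments, and no fold change is given for it. The pyrimidine nucleotide carriers SLC25A33 and SLC25A36, which supply the precursors of mitochondrial DNA and RNA, summed to 46.4 (44.0 to 48.8) in WT and 54.0 (51.2 to 56.8) in PERK-KO cells. SLC25A36 was at 17.5 (16.4 to 18.6) and 21.9 (20.6 to 23.3), with a log2 fold change of 0.33 ± 0.13. SLC25A33 was at 28.9 (26.8 to 31.1) and 32.1 (29.7 to 34.5), which overlapped.

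The cofactor carriers differed in both directions. SLC25A32, which brings folate and FAD into the matrix, was at 10.1 (9.12 to 11.01) in WT and 13.2 (12.04 to 14.4) in PERK-KO cells, with a log2 fold change of 0.39 ± 0.19. Its row shares 527 bases with DCAF13 on the other strand, which was at 25.8 and 25.2 FPKM. Whether the counting used strand was not stated, so that reads from the shared stretch cannot be assigned with certainty. SLC25A17, the adenine nucleotide and cofactor carrier of the peroxisome and so the one member that is known to act outside mitochondria, was at 24.8 (23.2 to 26.3) and 18.5 (17.1 to 20.0). Its log2 fold change of -0.42 ± 0.14 was the lowest of the 15 carriers in the nucleotide and cofactor group. The NAD carriers SLC25A51 and SLC25A52 summed to 6.77 (5.89 to 7.64) and 7.91 (6.87 to 8.96) and overlapped. They resemble each other closely, so the split between them is uncertain. Over the 15 carriers of nucleotides and cofactors the median log2 fold change was 0.10. By separate limits 2 of the 15 were lower and 4 higher, beside 18.7% and 26.1% of all genes. The summed FPKM of the 15 was 966 in WT and 978 in PERK-KO cells.

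Amino acid carriers were on the higher side in PERK-KO cells. The largest positive difference of all 42 carriers was that of SLC25A22 (chr11:790475-798269, minus strand, GRCh37), which takes glutamate into the matrix with a proton. It was at 25.2 (23.5 to 26.9) in WT and 35.9 (33.6 to 38.2) in PERK-KO cells, with a log2 fold change of 0.51 ± 0.13. SLC25A18, the other glutamate carrier, was at 0.210 and 0.270, with limits whose widths correspond to about 8 and 9 fragments. SLC25A22 thus made up 99.2% of the glutamate carrier FPKM in WT and 99.3% in PERK-KO cells. Both aspartate/glutamate carriers were higher as well. SLC25A13 (citrin) was at 17.7 (16.5 to 18.97) and 20.9 (19.4 to 22.4), with a log2 fold change of 0.24 ± 0.14. SLC25A12 (aralar) was at 3.35 (2.91 to 3.79) and 4.36 (3.82 to 4.91), with a log2 fold change of 0.38 ± 0.26. Their sum was 21.1 (19.8 to 22.4) in WT and 25.3 (23.7 to 26.9) in PERK-KO cells, and citrin held 84.1% and 82.7% of it. The carriers of ornithine, of basic and branched-chain amino acids and of glycine for haem synthesis had overlapping limits, with log2 fold changes from -0.07 to 0.18. Of the 7 amino acid carriers tested, 3 were higher and 0 lower by separate limits, beside 26.1% and 18.7% of all genes. The median log2 fold change of the 7 was 0.18. After the rescaling to a median of 0, SLC25A22 alone of these 3 had separate limits, and the median was 0.14. SLC25A2, a second ornithine carrier, was listed at 0 in both samples.

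Carriers of organic acids and glutathione were on the lower side. SLC25A1 (chr22:19163088-19166338, minus strand, GRCh37) exports citrate, from which the cytosol makes acetyl-CoA for fatty acids and sterols. It was at 175 (168 to 181) in WT and 118 (113 to 124) in PERK-KO cells, the largest difference among carriers with separate limits. Its log2 fold change of -0.56 ± 0.09 corresponds to a WT level 1.48 times that of PERK-KO cells, just inside 1.5-fold. SLC25A10, the dicarboxylate carrier, was at 77.2 (73.4 to 80.9) and 61.5 (58.0 to 65.0), with a log2 fold change of -0.33 ± 0.11. SLC25A11, the 2-oxoglutarate/malate carrier, was at 104 (98.7 to 109) and 89.4 (84.9 to 94.0), with a log2 fold change of -0.21 ± 0.10. Within the malate-aspartate shuttle, SLC25A11 was lower and SLC25A12 and SLC25A13 were higher in PERK-KO cells by their deposited limits. These differences were small, since the limits of SLC25A12 and SLC25A13 overlapped after the rescaling and SLC25A11 was at -0.08 once genes of like length were subtracted.

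Of the glutathione carriers SLC25A39 and SLC25A40, the first was lower in PERK-KO cells. SLC25A39 was at 155 (148 to 161) in WT and 136 (130 to 142) in PERK-KO cells, with a log2 fold change of -0.18 ± 0.09, and it held 96.7% and 95.3% of their summed FPKM. SLC25A40, much the lower of both, had a log2 fold change of 0.33 with overlapping limits. The sum of the pair was 160 (153 to 167) in WT and 143 (137 to 149) in PERK-KO cells. The carnitine/acylcarnitine carrier SLC25A20, which brings fatty acids in for oxidation, and the oxodicarboxylate carrier SLC25A21 were between 1.77 and 3.25 FPKM in the 2 samples, with overlapping limits. Of the 7 metabolite carriers, 4 were lower and 0 higher by separate limits, beside 18.7% and 26.1% of all genes. The median log2 fold change of the 7 was -0.21. The summed FPKM of the group was 521 in WT and 417 in PERK-KO cells. This is a ratio of 0.801, beside 0.869 for the sum over all genes tested. The 4 lower carriers have short transcripts, and their lengths are set beside those of all genes in the plot of fold change against length.

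Among the ion carriers, SLC25A3, the phosphate carrier, was the second most abundant of all members at 308 (295 to 321) in WT and 266 (254 to 277) in PERK-KO cells, with a log2 fold change of -0.21 ± 0.09. SLC25A14, which resembles the uncoupling proteins, was at 17.7 (16.0 to 19.4) and 14.2 (12.6 to 15.9), with a log2 fold change of -0.32 ± 0.22. Its relatives SLC25A27 and SLC25A30 had overlapping limits. The iron carriers SLC25A28 and SLC25A37 (the mitoferrins) summed to 35.7 (33.5 to 37.9) and 37.1 (34.6 to 39.5) and overlapped. By separate limits 2 of the 6 ion carriers were lower and 0 higher, beside 18.7% and 26.1% of all genes. The median of the 6 was 0.03. After the rescaling to a median of 0 over all genes it was -0.01, and its sign is therefore not given as a direction.

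The remaining 7 carriers were left without a substrate in the grouping used here, and all had overlapping limits. SLC25A48 (chr5:135170365-135224326, plus strand, GRCh37) was the member past 1.5-fold, at 1.79 (1.18 to 2.40) in WT and 1.14 (0.627 to 1.64) in PERK-KO cells. The widths of these limits correspond to about 35 and 20 fragments, and the log2 fold change of -0.66 ± 0.81 spans 0. SLC25A46, a protein of the outer membrane that acts in mitochondrial dynamics, was the highest of the 7 at 16.2 and 16.6. The median log2 fold change of the 7 was -0.05.

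**Figure D3:**
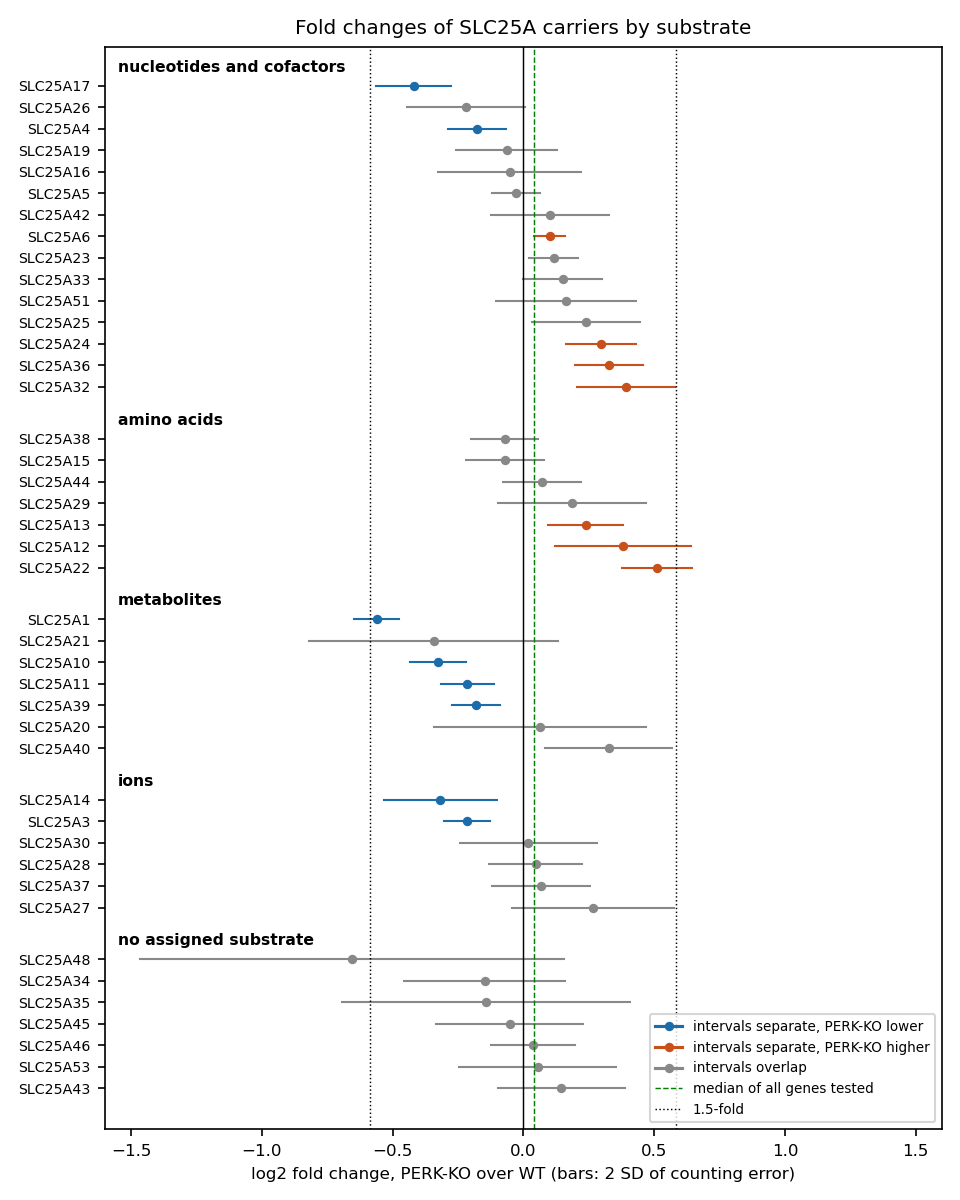
The log2 fold change (PERK-KO over WT, 1 sample each) is plotted for the 42 carriers by substrate, with bars of 2 SD of the counting error, dotted lines at 1.5-fold and a dashed line at the median of all genes tested. Blue points (8, confidence limits separate and PERK-KO lower) include 4 of the 7 metabolite carriers, and orange points (7, PERK-KO higher) include 3 of the 7 amino acid carriers. Of all genes tested, 18.7% were lower and 26.1% higher by separate limits.

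Fold change varied with transcript length across all genes, and the carriers were set against this. The length was that of the canonical transcript in GENCODE 44, which was found for 85.3% of the genes tested and for all 42 carriers. Among all genes with a length, the median log2 fold change was -0.18 for transcripts of 112 to 2352 bases, 0.06 for those of 2353 to 4354 bases and 0.24 for those of 4356 to 37027 bases, classes with equal numbers of genes. Of the 18 carriers in the class of short transcripts 13 were lower in PERK-KO cells, beside 69.6% of all genes in that class. In the middle class 3 of 17 carriers were lower, beside 43.1% of all genes, and in the long class 3 of 7, beside 24.3%. Spearman's rho of fold change with length was 0.45 across 12445 genes and 0.30 across the 42 carriers. Genes of 1 library pair are not independent replicates, and all points share the same 2 libraries. The metabolite carriers had a median length of 1778 bases, and the amino acid carriers 3141 bases.

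The running median of genes of like length was then subtracted, first with the canonical transcript and then with the median length of the protein-coding transcripts of each gene, and both values are given in this order. The lower carriers SLC25A1 (-0.41 and -0.52), SLC25A17 (-0.37 and -0.48) and SLC25A10 (-0.26 and -0.37) remained below genes of like length by more than their counting error, and so did SLC25A4 (-0.33 and -0.40) and SLC25A3 (-0.43 and -0.13). SLC25A11 (-0.08 and -0.08) and SLC25A39 (-0.04 and -0.05) came within it. SLC25A14 was at -0.18 and -0.24, on either side of its counting error. SLC25A3 depended the most on the choice of transcript, since its canonical form has 5984 bases and its median protein-coding form 1364.

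Among the higher carriers, SLC25A22 was at 0.51 and 0.60, the second of which is past 1.5-fold, and SLC25A32 was at 0.36 and 0.30. SLC25A36 (0.14 and 0.16), SLC25A24 (0.18 and 0.13), SLC25A12 (0.26 and 0.18) and SLC25A13 (0.18 and 0.12) came closer to genes of like length. SLC25A6 moved further above them, from 0.10 to 0.29 and 0.17. SLC25A5, with overlapping limits, went from -0.03 to 0.20 and 0.04. The pyrimidine nucleotide carrier SLC25A33, with overlapping limits, was at 0.02 and -0.03. The ATP-Mg carriers SLC25A23 and SLC25A25, also with overlapping limits, were at 0.04 and 0.22 and at 0.17 and 0.07. The median of the metabolite carriers moved from -0.21 to -0.08 with either length, and that of the amino acid carriers from 0.18 to 0.18 and 0.12. The part of transcript length in the carrier differences was not tested beyond these subtractions.

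Promoters were searched because the study deals with GABP, a transcription factor of many nuclear genes for mitochondrial proteins. The 250 bases before the transcription start were taken from RefSeq on GRCh38.p14 for 36 of the 42 carriers and 9969 of all genes tested. On either strand, CCGGAAG, the core that GABP and other ETS factors bind, was found in 7 of 36 carriers (19.4%) and in 1559 of 9969 genes (15.6%). The 7 carriers with it had a median log2 fold change of -0.07 with 4 lower, and the 29 without it 0.07 with 12 lower. The same split was not made over all genes, and the part of the core in the carrier differences was not tested. Of the carriers with separate limits, 3 of 8 lower ones and 1 of the 6 higher ones with a promoter held it, and SLC25A32 was not searched. The motifs of these carriers are shown with up to 20 bases on each side, 5′ to 3′ on the strand of the gene. The shares with the core among all lower and all higher genes are not given here, so no direction is read from these matches. The capitals mark CCGGAAG, or CTTCCGG where it lies on the opposite strand.
SLC25A17, lower, 48 bases before the start, chr22:40819368-40819414, minus strand: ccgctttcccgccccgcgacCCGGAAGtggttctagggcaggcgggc
SLC25A14, lower, 18 bases before the start, chrX:130339881-130339918, plus strand: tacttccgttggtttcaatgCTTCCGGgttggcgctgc
SLC25A4, lower, 154 bases before the start, chr4:185143092-185143138, plus strand: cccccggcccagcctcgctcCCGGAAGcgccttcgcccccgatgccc
SLC25A24, higher, 82 bases before the start, chr1:108200399-108200445, minus strand: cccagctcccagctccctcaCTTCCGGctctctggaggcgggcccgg

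SLC25A46 was the carrier with the most copies of the core, 3 between 64 and 12 bases before the start, and its log2 fold change was 0.04 with overlapping limits. It is shown for its number of copies.
SLC25A46, chr5:110738923-110739006, plus strand: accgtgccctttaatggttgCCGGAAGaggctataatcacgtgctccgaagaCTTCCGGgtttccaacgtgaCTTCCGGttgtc
The remaining carriers with the core were SLC25A20 and SLC25A38, with log2 fold changes of 0.06 and -0.07. SLC25A1 and SLC25A22, with the largest differences among the carriers with separate limits, did not hold these letters in the 250 bases. TGATGNAA, a core of the elements that ATF4 binds, was found in 1 of 36 carriers (2.78%), SLC25A11, and in 134 of 9969 genes (1.34%). A match is a stretch of letters and not a measured binding site.

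Genes of the TIM22 pathway, which inserts the carriers, differed in both directions. Of the 10 tested, TIMM10 and TIMM13 were past 1.5-fold in the lower direction, beside 7.54% of all genes. Both encode small chaperones of the intermembrane space that escort hydrophobic proteins. TIMM10 was at 131 (124 to 139) in WT and 86.2 (79.7 to 92.6) in PERK-KO cells, and TIMM13 at 107 (102 to 113) and 70.6 (66.4 to 74.8), log2 fold changes of -0.61 and -0.61. By separate limits 4 of the 10 were lower and 2 higher, beside 18.7% and 26.1% of all genes. The median of the 10 was -0.13, beside 0.04 for all genes. The median transcript length was 1458 bases over the 8 of these genes that had one. TIMM10 has a transcript of 668 bases, and all genes in the bin of median length 654.5 had a median of -0.41 (quartiles -0.64 and -0.10). TIMM13 has 1664 bases, and all genes in the bin of median length 1598 had a median of -0.15 (quartiles -0.34 and 0.05). The part of length in these differences was not tested.

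Of 5 genes of the SLC25 family that bear other symbols, 3 were tested. Past 1.5-fold were 0 of these, beside 7.54% of all genes lower and 10.1% higher. By separate limits MTCH1 and MTCH2 were lower, beside 18.7% of all genes, with log2 fold changes of -0.23 and -0.16. The uncoupling protein UCP2 was higher, beside 26.1% of all genes, at 111 FPKM in WT and 139 in PERK-KO cells. UCP3 was below 1 FPKM and UCP1 was listed at 0 in both samples. A further 21 genes for transporters and channels of the mitochondrial membranes outside the family had a median log2 fold change of 0.02. By separate limits 2 were lower and 5 higher, beside 18.7% and 26.1% of all genes, and 0 were past 1.5-fold. Thus 15 of these 21 (71.4%) lay within 1.2-fold of WT, beside 69.0% of the carriers.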

How the data were processed

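RNA of WT and PERK-KO HEK293 cells was analysed, 1 library of each. Per the submitters' processing notes, TopHat2 2.0.13 aligned reads to the hg19 (GRCh37) build. The authors deposited gene FPKM values and their confidence limits, made with Cufflinks 2.2.1. Library strand, the use of strand in counting and sequencing depth were not given in the sources used here. Interval widths correspond to 20 to 4919 fragments for the carriers tested. All fragment numbers given here were derived from interval widths as if these held counting error alone, and are not read counts.

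Both tables list 25277 rows, of which 1305 off the main chromosomes and 14 copies on Y were left out. The fold change was PERK-KO over WT without a pseudocount, for genes that reached an FPKM of 1 in either library. No test was made. A gene was counted past 1.5-fold, or when its limits did not overlap. The members, groups and lists were chosen with earlier results of these data known. Named in full were carriers past 1.5-fold or with separate limits, the ADP/ATP carriers and the 10 highest, with others as examples of a substrate, chosen after their values were seen. From the lists, genes past 1.5-fold were named, and the markers below 1 FPKM or in other cell types. The genes of the family under other symbols were named as well, after their values were seen. Limits of sums and fold changes were propagated as 2 SD. Transcript lengths were from GENCODE 44 on GRCh37, and the running median spanned 501 genes. Promoters were from RefSeq.

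Alternatives were FPKM above 0, of at least 1 in both samples or of at least 5, pseudocounts of 0.1 and 1, rescaling to the median or the 75th percentile, subtraction of the length median, and limits of 1.25-fold, 1.49-fold (the limit of the study) and 2-fold. Transcripts of at least 1000 bases, leaving out the 10 highest carriers, and the median length of protein-coding transcripts were added after the data were seen. Scripts were tested on simulated data and used Python 3.11.15, numpy 2.4.6, pandas 2.3.3 and matplotlib 3.10.9.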

Additional observations from a re-analysis of the deposited data

Results flagged for a closer look

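A pair of rows with SLC25A symbols lies outside the carrier comparisons and held signal, which is why both are listed here. SLC25A5-AS1, the antisense RNA that shares 721 bases with the start of SLC25A5, was at 1.05 FPKM in WT and 1.02 in PERK-KO cells. The pseudogene SLC25A51P1 was at 0.171 FPKM in WT and 0.225 in PERK-KO cells, with limits whose widths correspond to about 4 fragments in each. Reads that fit both these rows and SLC25A5 or SLC25A51 cannot be told apart in the values used here.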

How the results depend on the processing

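The count of carriers past the fold limit, 1 lower and 0 higher, rests on small numbers and moved with most settings. It was 2 lower and 1 higher without a filter on low values, beside 10.7% and 13.7% of all genes. The carriers added there, SLC25A41 and SLC25A52, were below 1 FPKM in both samples. It was 0 lower with FPKM of at least 5, beside 6.78% of all genes, and 0 lower with a pseudocount of 1, beside 5.26%. Rescaling to a median of 0 and by the 75th percentile shifted all log2 fold changes by 0.04 and 0.03. Both gave 2 lower, with SLC25A1 as the second, beside 8.77% and 8.50% of all genes. After subtraction of the length median the count was 0 lower, beside 4.96% of all genes. With the median protein-coding length 1 was lower and 1 higher (SLC25A22), beside 5.81% and 6.76%. With the lowest fold limit tried 5 were lower and 5 higher, beside 18.4% and 24.3% of all genes, and with 2-fold 0 were lower and 0 higher, beside 2.08% and 3.28%. The number with separate limits was 8 lower under all filters and the rescaling tried, and 7 higher became 4 after rescaling to a median of 0. The median of the metabolite carriers was -0.21 and became -0.08 after either length subtraction (-0.0816 and -0.0791), where the median value subtracted was -0.13 with canonical transcripts. The median of all members ranged from -0.01 to 0.05, those of nucleotide and amino acid carriers kept their sign, and those of ion carriers (-0.10 to 0.03) and of carriers without a substrate (-0.18 to 0.04) did not. Of 114 alternative values of the 19 carriers given in full, 16 moved by more than the counting error, all under a length subtraction. Of the carriers past 1.5-fold or with separate limits, 0 changed sign. SLC25A5 and SLC25A33, with overlapping limits, did change sign under a length subtraction. No paired analysis was possible because each genotype has 1 sample, and no replicate could be left out. Carriers near 1 FPKM have limits whose widths correspond to as few as 20 fragments, and a difference of less than about their limits was not detectable at this depth.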

Other observations

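Several carrier genes share exonic or genomic stretches with neighbours, and the values of these neighbours bear on how firmly the carrier levels can be read. SLC25A35, at 1.27 FPKM in WT and 1.15 in PERK-KO cells, shares 1441 bases with RANGRF on the other strand, which was at 70.4 and 45.4. SLC25A40 shares 149 bases with DBF4, which was at 6.90 and 8.44. SLC25A26, which carries S-adenosylmethionine, shares 131 bases with LRIG1 at 5.61 and 7.15. These neighbours were chosen after their values were seen, and their part in the carrier values was not tested.

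The carriers listed at 0 in both samples are SLC25A2, SLC25A31 and SLC25A47, with the pseudogene SLC25A3P1 as the remaining row at 0.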
